A study of Mus musculus with 80 samples.

Results

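The genes described here are 10 regulators of hepatocyte growth and of the cell cycle, chosen by name, with earlier results of these data known. They are the transcription factor genes Myc, Foxm1, E2f1, E2f2, E2f7 and E2f8, the stress response genes Gadd45a and Gadd45b, and the growth factor receptor genes Egfr and Met. All 10 were found among the 22103 gene rows of the deposited table, and all 10 passed the filter on low counts that left 15197 rows for testing. Liver RNA came from female Balb-C mice aged 10 to 12 weeks that were gavaged for 7 days with PFESA-BP2 (Nafion byproduct 2), one of the perfluoroalkyl ether sulfonic acids. The daily dose was 0 (control), 0.03, 0.3, 3.0 or 6.0 mg/kg-day in groups of 4 mice, and each mouse gave 1 library. The vehicle is unsettled, since the titles of the controls name DMSO and the design text speaks of deionized water. All groups had the same strain, sex and age range, and no genetic change is given in the labels. The comparison asks how liver RNA levels differ between each dose and the control.

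In the liver, hepatocytes rarely divide, but they re-enter the cell cycle when growth factors or drug-like inducers act on them. EGFR and MET are the hepatocyte receptors for the EGF family and for HGF, and MYC is a growth-promoting transcription factor downstream of such signals. E2F1 and E2F2 activate the genes of DNA replication, E2F7 and E2F8 are atypical E2F proteins that repress many of the same genes and are known for their part in hepatocyte polyploidy, and FOXM1 activates the genes of mitosis. GADD45A and GADD45B are small stress-induced proteins. In mouse liver GADD45B is also known as a partner of the nuclear receptor CAR, which senses foreign compounds.

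Levels are in CPM, counts scaled to a common library total. Total counts ranged from 13086779 to 21467012 per library. The words rose and fell are kept for genes past an adjusted p of 0.05 (edgeR's quasi-likelihood test, Benjamini-Hochberg adjustment over all 15197 genes). Within the groups, 5 libraries (3, 11, 15, 19 and 23, of which each group held 1) stood apart from the other 15 on the first component, which held 42.7% of the variation left after the group means. Defining hepatocyte markers were present in every group: the summed level of 11 of 12 listed markers lay between 84576 and 116986 CPM at 6.0 mg/kg-day and between 138459 and 185413 CPM in the controls, with 7 of 11 lower. At 6.0 mg/kg-day, 1 library (22) had a summed T and NK cell marker level of 139 CPM (12 of 12 markers in the table, none at 0 in the group), against 4.35 to 12.2 CPM in the other 3 libraries of that dose and 6.39 to 8.88 CPM in the controls. Neutrophil and monocyte markers summed to 9.47 to 30.7 CPM at 6.0 mg/kg-day, again highest in library 22, and to 5.45 to 7.08 CPM in the controls, where Elane was at 0. Kupffer cell markers summed to 266 to 576 CPM at 6.0 mg/kg-day and to 346 to 416 CPM in the controls, with 2 of 11 lower and 0 higher. Over all tested genes 11.2% were called higher and 11.2% lower at 6.0 mg/kg-day. Called higher and lower at 6.0 mg/kg-day were 2 and 0 of 7 T and NK cell, 1 and 0 of 5 neutrophil and monocyte, 0 and 0 of 7 B cell, 0 and 0 of 3 dendritic cell, 2 and 2 of 10 sinusoidal endothelium, 0 and 3 of 10 stellate cell, 0 and 1 of 6 cholangiocyte and 1 and 2 of 6 erythroid markers tested. Without library 22 the lower count was 4 of 11 hepatocyte, 1 of 10 stellate cell, 1 of 10 sinusoidal endothelium and 0 of 6 cholangiocyte markers, and 0 of 8 T and NK cell markers were higher. Without the 5 libraries 8 hepatocyte and 4 stellate cell markers were lower, and 3 T and NK cell, 3 endothelium, 2 neutrophil and monocyte and 2 cholangiocyte markers were higher. The part of these markers in the results below was not tested, and values without library 22 and without the 5 libraries are given beside the genes they touch.

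The 2 highest doses carried most of the change, and every dose is set against the same 4 control libraries. E2f7 passed the filter on low counts only through dosed libraries, as 0 control libraries exceeded the filter's level. Its values are described with that gene, and it is left out of the counts in this and the next 2 paragraphs. Foxm1 exceeded that level in 2 and Myc in 3 of the 4 control libraries, so dosed libraries helped to carry both past the filter. Foxm1 and Myc stay in these counts. The top dose of 6.0 mg/kg-day had 6 of the other 9 genes higher than in the controls (Gadd45b, Foxm1, Myc, E2f2, Gadd45a and E2f1), where 11.2% of all tested genes were called higher. Egfr and Met were lower, where 11.2% of all tested genes were called lower, and E2f8 did not pass. The 4 libraries at 6.0 mg/kg-day lay wholly above or below the 4 control libraries for 8 of these 9 genes, against 18.5% of all tested genes. The median log2 fold change of the 9 genes was 1.81, beside -0.02 over all genes.

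At 3.0 mg/kg-day Gadd45b, Foxm1 and E2f2 were higher (3.18% of all tested genes) and Egfr was lower (1.43% of all tested genes). The groups did not overlap for 6 of the 9 genes, against 10.5% of all tested genes: Gadd45a and E2f1 lay above the controls besides the 4 that passed. At 0.3 mg/kg-day 0 of the 9 genes passed edgeR's quasi-likelihood test, where 0.290% of all tested genes did. An unadjusted p under 0.05 was found for 4 of the 9, and for 1301 of the 15197 tested genes. DESeq2 called E2f2 and Egfr at that dose, and 185 genes in all, a number equal to 1.22% of the rows tested in edgeR. The groups at 0.3 mg/kg-day did not overlap for E2f2 (higher) and for E2f8 and Egfr (lower), that is for 3 of 9 genes against 6.69% of all tested genes. At 0.03 mg/kg-day 0 of the 9 passed, where 0.00% of all tested genes did. Only E2f2 had an unadjusted p under 0.05 in edgeR, as did 565 of the 15197 tested genes. DESeq2 called 11 genes at that dose, none of the 10 among them.

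Over the rank of the dose, 6 of the 9 genes had a rising slope that passed, where 13.7% of all tested genes did, and 2 had a falling one, where 12.7% did. The slope was 1.41 ± 0.118 (SE) on the log2 scale per step of dose for Gadd45b, 0.77 ± 0.085 for Foxm1 and 0.69 ± 0.0942 for Myc, and for Egfr it was -0.63 ± 0.0681. The slope of E2f8 was -0.05 ± 0.0585 and did not pass (adjusted p = 0.57).

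**Figure D1:**
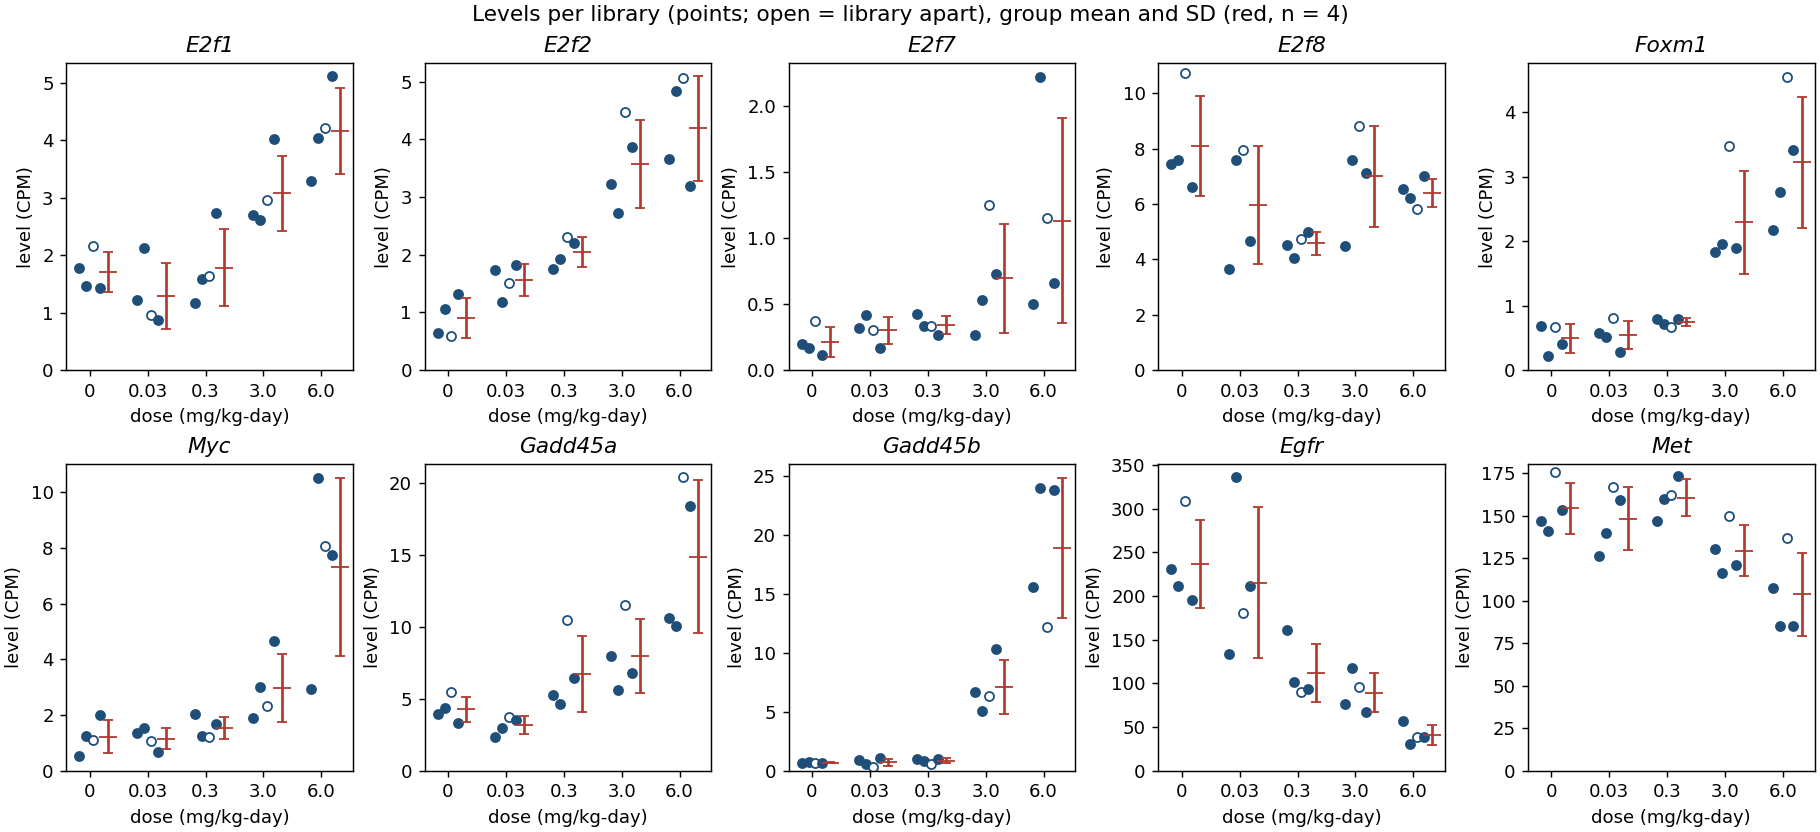
Level (CPM, y axis from 0) of each of the 10 genes in every library, by dose in mg/kg-day on the x axis; points are single libraries, open points are the 5 libraries that stood apart, and the red mark and bar are the group mean and SD (n = 4). Gadd45b stays at or below 1.05 CPM in all libraries up to 0.3 mg/kg-day and lies between 12.2 and 23.9 CPM at 6.0 mg/kg-day, while Egfr lies between 30.1 and 56.7 CPM at 6.0 mg/kg-day and between 195 and 309 CPM in the controls.

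**Figure D2:**
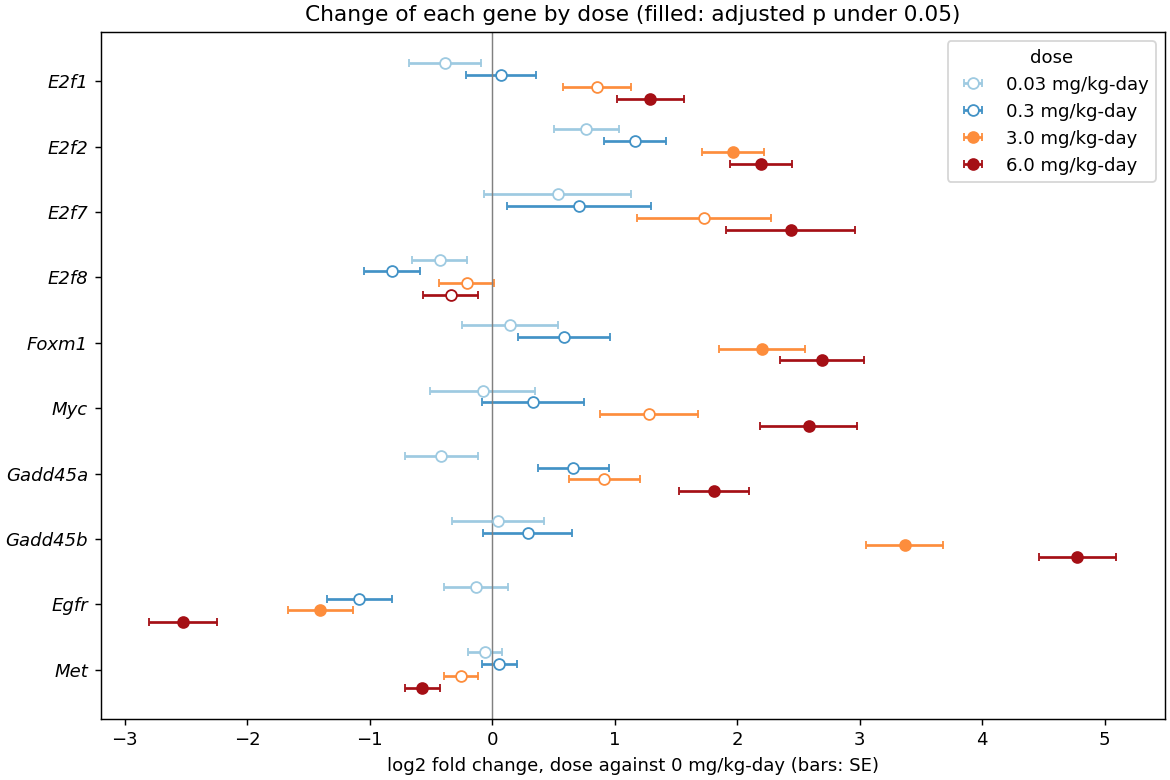
Log2 fold change of each of the 10 genes (y axis) at each dose against 0 mg/kg-day (x axis), with bars for the SE; filled points had an adjusted p under 0.05 in edgeR's quasi-likelihood test. At 6.0 mg/kg-day the points run from -2.52 for Egfr to 4.78 for Gadd45b, and E2f8 is the open one at -0.34.

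Of the activator E2Fs, E2f2 had a higher group mean at each step of dose. Its level was 0.642, 1.07, 0.596 and 1.31 CPM in the 4 control libraries, 1.73, 1.19, 1.51 and 1.82 CPM at 0.03 mg/kg-day, and 1.76, 1.92, 2.31 and 2.21 CPM at 0.3 mg/kg-day. It was 3.24, 2.73, 4.48 and 3.86 CPM at 3.0 mg/kg-day and 3.67, 4.84, 5.07 and 3.20 CPM at 6.0 mg/kg-day. All 4 libraries at 0.3, at 3.0 and at 6.0 mg/kg-day were above every control library, and of the neighbouring doses only 3.0 and 0.3 mg/kg-day did not overlap. E2f2 rose by 2.20 ± 0.251 (log2, SE) at 6.0 mg/kg-day, or 4.58-fold (adjusted p = 2.3e-06), and by 1.97 ± 0.252 at 3.0 mg/kg-day (adjusted p = 4.07e-05). At 0.3 mg/kg-day the log2 fold change was 1.17 ± 0.256 with an adjusted p of 0.0543 (edgeR), which was 0.0273 without control library 4 and ranged up to 0.215 without another of the libraries. It was 0.0191 with a term for the 5 libraries that stood apart and 0.00914 in DESeq2. Without those 5 libraries the log2 fold change was 0.98 (adjusted p = 0.107 in edgeR). At 0.03 mg/kg-day it was 0.77 (95% interval 0.21 to 1.33, adjusted p = 1).

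E2f1 changed less. It had 1.78, 1.46, 2.16 and 1.43 CPM in the controls, 1.22, 2.12, 0.954 and 0.881 CPM at 0.03 mg/kg-day, and 1.17, 1.59, 1.64 and 2.74 CPM at 0.3 mg/kg-day. It had 2.70, 2.61, 2.97 and 4.03 CPM at 3.0 mg/kg-day and 3.29, 4.03, 4.21 and 5.12 CPM at 6.0 mg/kg-day. The libraries of both high doses were all above the controls, and each dose overlapped with its neighbour. E2f1 rose by 1.29 ± 0.276 at 6.0 mg/kg-day (log2, adjusted p = 0.00189), and its log2 fold change of 0.85 ± 0.279 at 3.0 mg/kg-day did not pass (adjusted p = 0.0988).

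The atypical E2f7 and E2f8 gave different values. E2f7 was the least abundant of the 10 genes, with 2 to 44 counts per library, and passed the filter on low counts only through dosed libraries, since no control library exceeded the filter's level. Its level was 0.197, 0.169, 0.373 and 0.114 CPM in the controls, 0.321, 0.414, 0.301 and 0.165 CPM at 0.03 mg/kg-day, 0.426, 0.337, 0.337 and 0.263 CPM at 0.3 mg/kg-day, and 0.270, 0.533, 1.25 and 0.728 CPM at 3.0 mg/kg-day. Levels at 6.0 mg/kg-day were 0.497, 2.22, 1.15 and 0.661 CPM, all above the controls, with library 22 the highest. The log2 fold change of E2f7 at 6.0 mg/kg-day was 2.44 ± 0.524 (SE), and it was 1.87 without library 22 and 2.80 without the 5 libraries that stood apart. In a fit with no filter on low counts, over all 22103 rows, it was 2.43 at 6.0 mg/kg-day (adjusted p = 0.00233) and 1.73 at 3.0 mg/kg-day (adjusted p = 0.105). The fit of the control and 6.0 mg/kg-day libraries alone left E2f7 out as too low.

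E2f8 showed no passing difference from the controls at any dose in the fit of all 20 libraries. It had 7.45, 7.59, 10.7 and 6.62 CPM in the controls, 3.66, 7.60, 7.93 and 4.68 CPM at 0.03 mg/kg-day, and 4.53, 4.04, 4.72 and 5.0 CPM at 0.3 mg/kg-day. It had 4.48, 7.58, 8.80 and 7.11 CPM at 3.0 mg/kg-day and 6.53, 6.20, 5.82 and 7.00 CPM at 6.0 mg/kg-day. The middle dose was the lowest group, with all 4 libraries below the controls, and the high doses overlapped with the controls. The log2 fold change was -0.82 ± 0.228 at 0.3 mg/kg-day (adjusted p = 0.165, but 0.0357 with a term for the 5 libraries that stood apart and 0.159 without those libraries) and -0.34 at 6.0 mg/kg-day (95% interval -0.82 to 0.14, adjusted p = 0.307). E2f8 shares 610 exonic bases (11.2% of its exons in the GENCODE M21 annotation) with Gm2788, a transcript on the opposite strand, and its deposited values were fractional in all 20 libraries. Gm2788 averaged 20.8 ± 6.85 CPM at 6.0 mg/kg-day and 42.6 ± 7.57 CPM in the controls (SD, n = 4 each) and fell by 1.03 on the log2 scale (adjusted p = 0.000794). The sources used here do not say whether counting used strand. Reads of E2f8 and Gm2788 in the shared bases therefore cannot be told apart, and the E2f8 level is uncertain.

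Promoter sequences are shown because 6 of these genes rose at the same dose. The RefSeq promoter table (GRCm38.p6), which holds 250 bases before to 50 after a start, matched 8 of the 10 genes, all but Myc and Foxm1, with 9 windows because E2f2 has 2. The words searched on both strands were the E2F words TTTGGCGC, TTTCCCGC, TTTCGCGC and TTTGCCGC, the cell cycle homology region (CHR) word TTTGAA, and the MYC E-box CACGTG. Of 32851 promoters of 300 bases, 2.27% held an E2F word, 17.9% the CHR word and 7.15% the E-box. The windows follow RefSeq's starts, which need not be those of the GENCODE M21 genes: the first E2f2 start lies 120 bases before the annotated gene, the second E2f2 start 8388 bases inside it, and the starts of E2f1 and Met 466 and 157 bases inside theirs. None of these words overlaps another in the windows printed. The windows of both E2F genes with an E2F word are shown, with that of E2f8, which held the CHR word, and that of Gadd45b, which held the E-box. Capitals mark the words found.
E2f2 (first window, chr4:136172024-136172323, plus strand): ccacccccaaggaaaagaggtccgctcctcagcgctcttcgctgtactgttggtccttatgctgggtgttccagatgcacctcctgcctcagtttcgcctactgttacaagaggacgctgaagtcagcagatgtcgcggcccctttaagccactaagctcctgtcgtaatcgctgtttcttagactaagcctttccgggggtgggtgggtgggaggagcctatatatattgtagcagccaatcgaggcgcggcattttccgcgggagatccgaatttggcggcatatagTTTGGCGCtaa
E2f7 (chr10:110745189-110745488, plus strand): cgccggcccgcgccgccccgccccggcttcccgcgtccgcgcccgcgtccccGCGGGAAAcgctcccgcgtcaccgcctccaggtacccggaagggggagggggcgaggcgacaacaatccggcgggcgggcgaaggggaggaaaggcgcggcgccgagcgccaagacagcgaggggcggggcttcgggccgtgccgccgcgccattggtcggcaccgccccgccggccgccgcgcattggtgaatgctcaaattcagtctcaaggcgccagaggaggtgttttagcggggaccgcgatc
E2f8 (chr7:48881547-48881846, minus strand): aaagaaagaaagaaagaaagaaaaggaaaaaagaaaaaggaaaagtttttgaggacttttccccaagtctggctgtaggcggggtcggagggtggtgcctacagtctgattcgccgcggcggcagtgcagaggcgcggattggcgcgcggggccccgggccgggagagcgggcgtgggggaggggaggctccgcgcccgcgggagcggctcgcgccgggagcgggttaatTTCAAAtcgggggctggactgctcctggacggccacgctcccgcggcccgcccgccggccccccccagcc
Gadd45b (chr10:80929841-80930140, plus strand): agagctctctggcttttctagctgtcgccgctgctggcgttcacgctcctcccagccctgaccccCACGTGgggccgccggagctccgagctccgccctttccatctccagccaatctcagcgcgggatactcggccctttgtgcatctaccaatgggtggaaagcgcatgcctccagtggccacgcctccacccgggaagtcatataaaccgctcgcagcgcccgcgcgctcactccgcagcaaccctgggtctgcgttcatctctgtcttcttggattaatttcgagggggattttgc

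The E2F word began 40 bases after the start in the first E2f2 window and 198 bases before it in the E2f7 window. The CHR word began 20 bases before the start of E2f8, and the E-box began 185 bases before that of Gadd45b. The second E2f2 window held the CHR word and the Met window the E-box, while the windows of Gadd45a, E2f1 and Egfr held none of the words. Of the genes with a word, E2f2 and Gadd45b rose at 6.0 mg/kg-day, Met fell, and E2f8 did not pass, so genes with a word moved in both directions. E2f7 is outside this tally because it passed the filter on low counts only through dosed libraries. Its log2 fold change at 6.0 mg/kg-day was 2.44. A match is a description of the letters in these windows, not a site.

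Among the E2F family, its dimer partners and the pocket proteins that bind E2Fs, 6 of 13 genes were higher and 2 lower at 6.0 mg/kg-day, and at 3.0 mg/kg-day only E2f2 passed (2 genes without library 22). Over all tested genes 11.2% were called higher and 11.2% lower at 6.0 mg/kg-day, and 3.18% and 1.43% at 3.0 mg/kg-day. Each companion list below stands beside these shares. The median log2 fold change of the 13 genes was 0.32, and E2f1, E2f2 and E2f7 are 3 of the 6. The activator E2f3 averaged 7.14 ± 0.699 CPM at 6.0 mg/kg-day and 5.08 ± 0.893 CPM in the controls (SD, n = 4 each) and rose by 0.50 (log2, adjusted p = 0.029). Rbl1, which encodes the pocket protein p107, rose by 1.29 (adjusted p = 0.00022). Rbl2, which encodes the pocket protein p130 of resting cells, fell by 0.56 (adjusted p = 0.00605), and the dimer partner Tfdp2 fell by 0.62 (adjusted p = 0.0107).

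Of 20 genes of DNA replication that E2Fs are known to activate, 16 were higher and 0 lower at 6.0 mg/kg-day, with a median log2 fold change of 1.28, and 9 were higher at 3.0 mg/kg-day. The cyclin gene Ccna2 averaged 19.6 ± 7.39 CPM at 6.0 mg/kg-day and 1.73 ± 0.259 CPM in the controls (SD, n = 4 each), a rise of 3.50 on the log2 scale (adjusted p = 1.28e-08). The replicative helicase genes Mcm5 and Mcm6 rose by 2.65 and 3.42, and Rrm2, a subunit of ribonucleotide reductase, rose by 3.46. Without library 22 the count at 6.0 mg/kg-day was 16, and without the 5 libraries that stood apart it was 17.

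Foxm1, the mitotic activator, was low in the controls and at the lower doses. It had 0.691, 0.225, 0.671 and 0.400 CPM in the controls, 0.578, 0.517, 0.803 and 0.275 CPM at 0.03 mg/kg-day, and 0.799, 0.722, 0.674 and 0.789 CPM at 0.3 mg/kg-day. It had 1.83, 1.95, 3.49 and 1.90 CPM at 3.0 mg/kg-day and 2.18, 2.77, 4.55 and 3.42 CPM at 6.0 mg/kg-day. Every library of the 2 high doses was above every library of the 3 lower ones, and the high doses overlapped each other. Foxm1 rose by 2.69 ± 0.346 at 6.0 mg/kg-day, or 6.47-fold (log2 and fold, adjusted p = 9.75e-06), and by 2.20 ± 0.349 at 3.0 mg/kg-day (adjusted p = 0.000409). The libraries that stood apart were the highest of both high doses, and a term for those libraries was 0.61 for Foxm1 (log2, adjusted p = 0.0115). Without them the changes were 2.65 and 2.09 (adjusted p = 1.6e-05 and 0.00116). Of the 4 control libraries 2 exceeded the filter's level for Foxm1, so dosed libraries helped to carry it past the filter. With no filter on low counts Foxm1 was also called higher at both high doses.

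The mitotic genes that FOXM1 is known to activate had the largest share of risers of the lists examined: 16 of 16 were higher at 6.0 mg/kg-day, with a median log2 fold change of 3.30, and 11 of 16 at 3.0 mg/kg-day. Cdc20, an activator of the anaphase-promoting complex, averaged 8.18 ± 2.50 CPM at 6.0 mg/kg-day and 0.278 ± 0.146 CPM in the controls (SD, n = 4 each), a rise of 4.80 (log2, adjusted p = 1.45e-09). The cyclin gene Ccnb2 rose by 3.90, the mitotic kinesin gene Kif20a by 3.18 and the centrosomal kinase gene Nek2 by 2.80. Without library 22 the count at 6.0 mg/kg-day was 15 of 16, and without the 5 libraries it was 16. The control mean of Cdc20 lay below the filter's level on low counts, so dosed libraries carried it past the filter. With no filter the count was also 16 of 16. The MuvB complex recruits B-MYB and FOXM1 to such genes. Of 7 tested genes of its core and of the MYB family, 1 was higher and 1 lower, near the 11.2% of all tested genes called in each direction. Higher was Mybl1, a MYB family gene that is not part of the MuvB core (by 2.00, adjusted p = 0.0182). Lower was Rbbp4, which fell by 0.31 (adjusted p = 0.0425). Without library 22 neither passed, and without the 5 libraries that stood apart 3 were higher and 0 lower. With no filter on low counts 2 of 8 were higher and 0 lower. The difference of Mybl2, the gene of B-MYB, was 2.82-fold (adjusted p = 0.0724), and the log2 fold change of Lin37 was 0.83 (adjusted p = 0.0602).

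Myc had 0.543, 1.24, 1.12 and 2.00 CPM in the controls, 1.35, 1.55, 1.05 and 0.660 CPM at 0.03 mg/kg-day, and 2.02, 1.25, 1.20 and 1.68 CPM at 0.3 mg/kg-day. It had 1.89, 3.02, 2.34 and 4.65 CPM at 3.0 mg/kg-day and 2.92, 10.5, 8.06 and 7.77 CPM at 6.0 mg/kg-day. The 6.0 mg/kg-day libraries were all above the controls, with library 22 the highest and library 21 far below the other 3. Myc rose by 2.59 ± 0.396 at 6.0 mg/kg-day, or 6.01-fold (adjusted p = 7.1e-05), and by 2.36 without library 22 (adjusted p = 0.000378). At 3.0 mg/kg-day the log2 fold change was 1.28 ± 0.402 (adjusted p = 0.0823), which was 0.0404 without control library 4 and up to 0.346 without another. It was 0.042 with a term for the 5 libraries that stood apart and 0.0329 in DESeq2, but 0.117 without those 5 libraries.

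The partners and targets of MYC included genes called higher and genes called lower. Of 11 network genes, 3 were higher (Myc among them) and 1 lower at 6.0 mg/kg-day, with a median log2 fold change of -0.28. The 1 lower gene of 11 is near the 11.2% of all tested genes called lower, and 11.2% were called higher. Without the 5 libraries that stood apart 4 were lower, and without library 22 the lower count was 0. Of the 11, 1 was higher at 3.0 mg/kg-day. Mxd3, a MAX-binding repressor expressed in cycling cells, averaged 1.23 ± 0.699 CPM at 6.0 mg/kg-day and 0.131 ± 0.0204 CPM in the controls (SD, n = 4 each) and rose by 3.18 (adjusted p = 0.00149). Its control mean lay below the filter's level on low counts, so dosed libraries carried it past the filter. With no filter 3 of 12 network genes were higher and 1 lower at 6.0 mg/kg-day. Mlx rose by 0.51, and Mxd1, a MAX-binding repressor, fell by 0.58. Mga had a log2 fold change of -0.44 that did not pass (adjusted p = 0.123). Of 15 known MYC target genes of growth, 5 were higher and 1 lower, with a median log2 fold change of 0.29, and 0 of the 15 passed at 3.0 mg/kg-day. The nucleolar genes Nop58 and Nop56 rose by 0.93 and 0.91, Odc1 of polyamine synthesis rose by 0.58, and the lactate dehydrogenase gene Ldha fell by 0.40. The higher count of these targets was 2 without library 22, 6 without the 5 libraries that stood apart and 3 with no filter on low counts.

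Gadd45b had the largest change of the 10 genes. It had 0.642, 0.731, 0.671 and 0.685 CPM in the controls, 0.899, 0.569, 0.351 and 1.05 CPM at 0.03 mg/kg-day, and 0.959, 0.866, 0.529 and 1.00 CPM at 0.3 mg/kg-day. It had 6.69, 5.09, 6.30 and 10.4 CPM at 3.0 mg/kg-day and 15.6, 23.9, 12.2 and 23.8 CPM at 6.0 mg/kg-day. The 3 lower groups overlapped one another, while 3.0 mg/kg-day lay wholly above them and 6.0 wholly above 3.0 mg/kg-day. Gadd45b rose by 4.78 ± 0.316 at 6.0 mg/kg-day, or 27.4-fold (adjusted p = 2.6e-09), and by 3.37 ± 0.315 at 3.0 mg/kg-day, or 10.3-fold (adjusted p = 9.42e-07). Its change at 0.3 mg/kg-day was 0.29 (95% interval -0.48 to 1.06, adjusted p = 0.898). Without library 22 the rise at 6.0 mg/kg-day was 4.64. The term for the libraries that stood apart was -0.58 (adjusted p = 0.014), and without them the rises were 4.96 at 6.0 and 3.43 at 3.0 mg/kg-day (adjusted p = 5.95e-09 and 2.21e-06).

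Gadd45a had 3.95, 4.33, 5.44 and 3.31 CPM in the controls, 2.38, 3.00, 3.77 and 3.52 CPM at 0.03 mg/kg-day, and 5.27, 4.62, 10.5 and 6.42 CPM at 0.3 mg/kg-day. It had 7.98, 5.63, 11.6 and 6.77 CPM at 3.0 mg/kg-day and 10.6, 10.0, 20.5 and 18.4 CPM at 6.0 mg/kg-day. The library that stood apart was the highest in every group, and a term for these libraries was 0.67 (log2, adjusted p = 0.000266). Gadd45a rose by 1.81 ± 0.289 at 6.0 mg/kg-day (adjusted p = 0.000111) and by 1.77 without those libraries (adjusted p = 1.8e-05). At 3.0 mg/kg-day the change of 0.92 ± 0.289 had an adjusted p of 0.0846, which was 0.0452 without those libraries, 0.00375 with the term and 0.0447 in DESeq2. Gadd45a shares 337 exonic bases (19.1% of its exons) with E230016M11Rik on the opposite strand, and its deposited values were whole in 2 of 20 libraries. That transcript averaged 3.05 ± 1.01 CPM at 6.0 mg/kg-day and 3.49 ± 0.922 CPM in the controls (SD, n = 4 each), and its log2 fold change was -0.19 (adjusted p = 0.629). As for E2f8, reads in the shared bases cannot be told apart, so the Gadd45a level is uncertain too.

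The third family member, Gadd45g, moved the other way: it averaged 0.733 ± 0.277 CPM at 6.0 mg/kg-day and 2.85 ± 1.36 CPM in the controls (SD, n = 4 each) and fell by 1.96 (adjusted p = 0.00655). Over the GADD45 family and its known partners, 4 of 10 genes, Gadd45a and Gadd45b among them, were higher and 2 lower at 6.0 mg/kg-day, with a median log2 fold change of 0.11. Of the 10, 3 were higher at 3.0 mg/kg-day. Cdk1, the mitotic kinase that GADD45 proteins bind, rose by 3.44 (adjusted p = 1.82e-07). Cdkn1a, the gene of the cell cycle inhibitor p21, averaged 7.99 ± 1.64 CPM at 6.0 mg/kg-day and 2.02 ± 0.619 CPM in the controls (SD, n = 4 each) and rose by 1.97 (adjusted p = 4.81e-05). At 0.3 mg/kg-day Cdkn1a fell by 1.60 (adjusted p = 0.0479), the only gene of that list to pass there. The kinase gene Map3k4, whose product GADD45 proteins activate, fell by 0.49 (adjusted p = 0.00897).

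The receptor genes fell. Egfr had 230, 211, 309 and 195 CPM in the controls, 133, 336, 180 and 212 CPM at 0.03 mg/kg-day, and 161, 102, 90.6 and 93.3 CPM at 0.3 mg/kg-day. It had 76.8, 118, 95.7 and 67.3 CPM at 3.0 mg/kg-day and 56.7, 30.1, 38.9 and 38.9 CPM at 6.0 mg/kg-day. From 0.3 mg/kg-day upwards every library was below every control, and 6.0 mg/kg-day lay wholly below 3.0 mg/kg-day. Egfr fell by 2.52 ± 0.277 at 6.0 mg/kg-day (log2, 5.75-fold lower, adjusted p = 1.43e-06) and by 1.40 ± 0.267 at 3.0 mg/kg-day (adjusted p = 0.00244). At 0.3 mg/kg-day its log2 fold change was -1.08 ± 0.264 (adjusted p = 0.0925, but 0.0275 with a term for the 5 libraries that stood apart and 0.0114 in DESeq2). Without the 5 libraries that stood apart, the change was -2.32 at 6.0 mg/kg-day (adjusted p = 2.26e-05) and -0.84 at 0.3 mg/kg-day (adjusted p = 0.174). The summed hepatocyte markers given above were also lower at 6.0 mg/kg-day, and in bulk liver fewer cells of a type and less RNA per cell cannot be told apart.

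Met changed less than Egfr. It had 147, 141, 176 and 154 CPM in the controls, 126, 140, 167 and 159 CPM at 0.03 mg/kg-day, and 147, 160, 162 and 173 CPM at 0.3 mg/kg-day. It had 130, 116, 150 and 121 CPM at 3.0 mg/kg-day and 107, 85.3, 137 and 85.3 CPM at 6.0 mg/kg-day. Every library at 6.0 mg/kg-day was below every control, and each dose overlapped with its neighbour. Met fell by 0.57 ± 0.142 at 6.0 mg/kg-day (log2, adjusted p = 0.00631), and a fit of those 2 groups alone gave an adjusted p of 0.0592. The libraries that stood apart had higher Met levels (a term of 0.28, log2, adjusted p = 0.0043), and without them the change was -0.64 (adjusted p = 0.000452).

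At 6.0 mg/kg-day, the genes listed with Egfr were called lower or did not pass. Among the EGF receptor family, its ligands and its feedback genes, 4 of 13 tested genes, Egfr among them, were lower and 0 higher at 6.0 mg/kg-day, with a median log2 fold change of -0.34, and 3 were lower at 3.0 mg/kg-day. Without the 5 libraries that stood apart 7 were lower at 6.0 mg/kg-day. With no filter on low counts 4 of 14 were lower at 6.0 mg/kg-day and 1 at 3.0 mg/kg-day. Erbb4, a related receptor, averaged 2.06 ± 0.736 CPM at 6.0 mg/kg-day and 8.50 ± 2.40 CPM in the controls (SD, n = 4 each) and fell by 2.04 (adjusted p = 0.00023). Spry4, which dampens receptor signalling, fell by 1.58 (adjusted p = 4.66e-06), and Errfi1, an inhibitor of EGFR, fell by 0.93 (adjusted p = 0.00981). The ligand gene Hbegf had a log2 fold change of -1.09 that did not pass (adjusted p = 0.0594). Over the rank of the dose, 6 of the 13 had a falling slope that passed, where 12.7% of all tested genes did. The ligand gene Btc was the 1 with a rising slope (0.19 ± 0.0612 per step, adjusted p = 0.0214), where 13.7% of all tested genes had one.

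For HGF and MET signalling, 1 of 11 tested genes was higher and 4, Met among them, were lower at 6.0 mg/kg-day, with a median log2 fold change of -0.30, and 0 passed at 3.0 mg/kg-day. The 1 higher gene of 11 is near the 11.2% of all tested genes called higher, and 11.2% were called lower. The adaptor genes Gab1 and Grb2 fell by 0.46 and 0.43, and Hgfac, the gene of a protease that activates pro-HGF, fell by 0.65 (adjusted p = 0.0322). Plau, the gene of urokinase, averaged 2.21 ± 0.410 CPM at 6.0 mg/kg-day and 1.11 ± 0.139 CPM in the controls (SD, n = 4 each) and rose by 0.98 (adjusted p = 0.0111). Without library 22, 2 of the 11 were lower, and without the 5 libraries that stood apart 2 were higher.

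Immediate early genes, which growth factors induce within a short time, moved both ways. Of 9 tested, 2 were higher and 3 lower at 6.0 mg/kg-day, with a median log2 fold change of 0.17, and at 3.0 mg/kg-day 1 was higher and 2 were lower. Over all tested genes 11.2% were called in each direction at 6.0 mg/kg-day. Jun averaged 17.3 ± 3.74 CPM at 6.0 mg/kg-day and 3.84 ± 0.831 CPM in the controls (SD, n = 4 each) and rose by 2.17 (adjusted p = 1.67e-07). Egr1, a zinc finger factor induced by EGFR signalling, averaged 2.49 ± 0.568 CPM at 6.0 mg/kg-day and 31.2 ± 20.1 CPM in the controls and fell by 3.64 (adjusted p = 1.6e-05). Ier2 fell by 1.21 and Junb by 1.05. Without library 22 the higher count was 1.

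**Figure D3:**
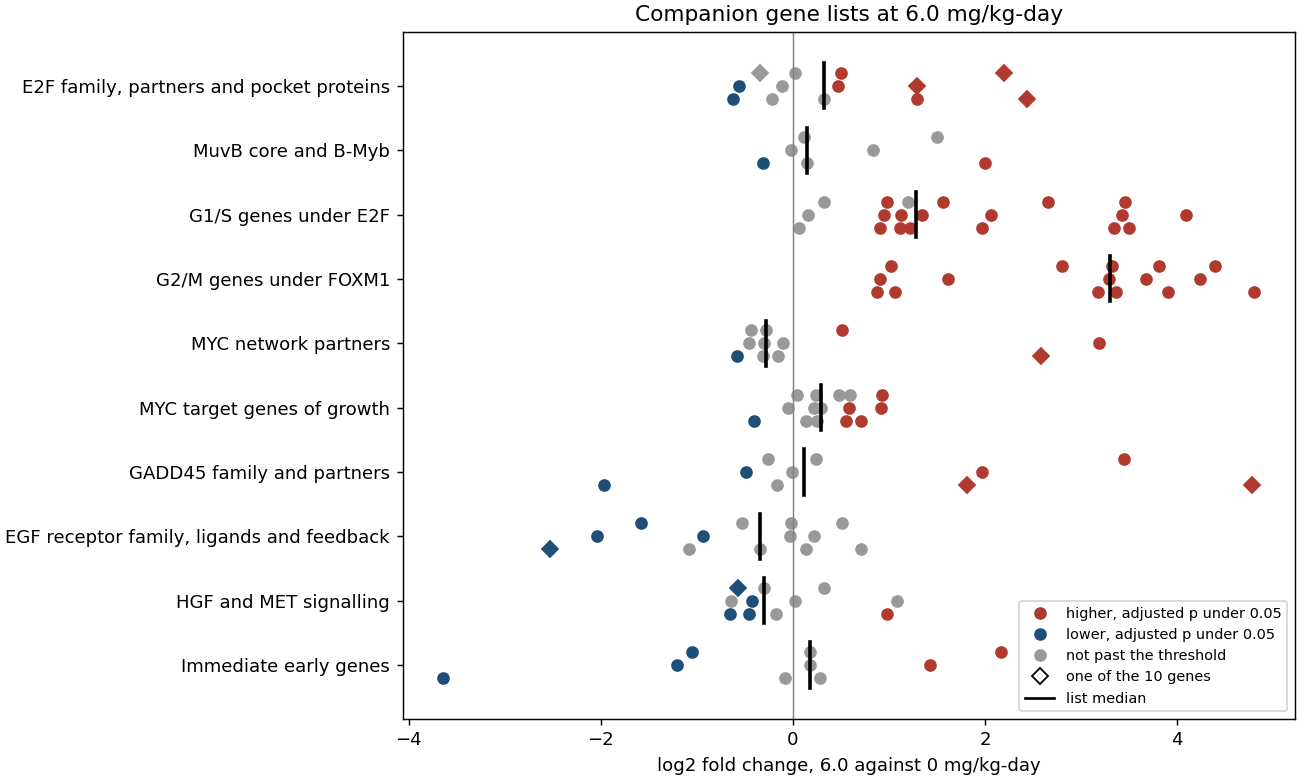
Log2 fold change at 6.0 against 0 mg/kg-day (x axis) of every tested gene of the 10 companion lists (y axis); diamonds are the genes of the set of 10, black lines are list medians, and red and blue mark genes called higher and lower in edgeR. All 16 mitotic genes under FOXM1 lie to the right of 0 with a median of 3.30, and the EGF receptor list has its 4 called genes to the left of 0.

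Between the 2 highest doses, 1 of the 9 genes other than E2f7 was higher and 1 was lower, where 2.09% of all tested genes passed. Gadd45b was higher at 6.0 than at 3.0 mg/kg-day by 1.41 ± 0.251 (log2, adjusted p = 0.00528), and Egfr was lower, with a change of -1.12 ± 0.267 (adjusted p = 0.0303). The call of Egfr was lost in 5 of 8 fits that left out 1 library (17, 18, 19, 22 or 24), with adjusted p up to 0.137, and a fit of those 2 groups alone gave 0.105 for Egfr and 0.104 for Gadd45b. The differences of Myc (1.30, adjusted p = 0.0673) and Gadd45a (0.89, adjusted p = 0.103) did not pass. For E2f2 the difference was 0.23 (95% interval -0.24 to 0.70) and for Foxm1 0.49 (95% interval -0.14 to 1.12).

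Per kilobase of exon, the order of the 10 genes shifted with dose. At 6.0 mg/kg-day the highest level was that of Met (13.5 ± 3.18 CPM per kb, SD, n = 4), followed by Gadd45b (11.9 ± 3.74), Gadd45a (8.43 ± 3.02) and Egfr (3.63 ± 0.986). In the controls Egfr (20.9 ± 4.44) and Met (20.1 ± 1.99 CPM per kb) led, followed by Gadd45a (2.41 ± 0.506) and E2f8 (1.49 ± 0.332), and Gadd45b was at 0.429 ± 0.0234 CPM per kb. Of these neighbours in the order, Met and Gadd45b, and Gadd45b and Gadd45a, differed at 6.0 mg/kg-day by less than the larger of their SDs, as did Egfr and Met in the controls. E2f7 was the lowest in every group, at 0.126 ± 0.0861 CPM per kb at 6.0 mg/kg-day and 0.0237 ± 0.0124 CPM per kb in the controls.

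For each of the 10 genes, the 3 other genes with the most similar pattern over the 20 libraries were taken by Pearson's r of log2 CPM among 13173 genes (13174 for E2f7) with a mean of 1 CPM or more. The libraries share doses and processing, so r is given as a description, for some pairs also for deviations from the group means. For deviations r was lower in every pair, from 0.522 (Gadd45b with Cdca3) to 0.935 (Met with Nr3c1). E2f2 was closest to Cyp2b10, a cytochrome P450 gene known as a CAR target (r = 0.967, and 0.816 for deviations). Next were Cyp2c55 (r = 0.937, and 0.63 for deviations) and Abcc4 (r = 0.928, and 0.566 for deviations). Cyp2b10 averaged 2247 ± 334 CPM at 6.0 mg/kg-day and 86.9 ± 23.6 CPM in the controls (SD, n = 4 each), and its change was 4.69 (log2, adjusted p = 9.89e-10). At 0.3 mg/kg-day, where E2f2 did not pass, Cyp2b10 rose by 2.74 (adjusted p = 5.12e-06).

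**Figure D4:**
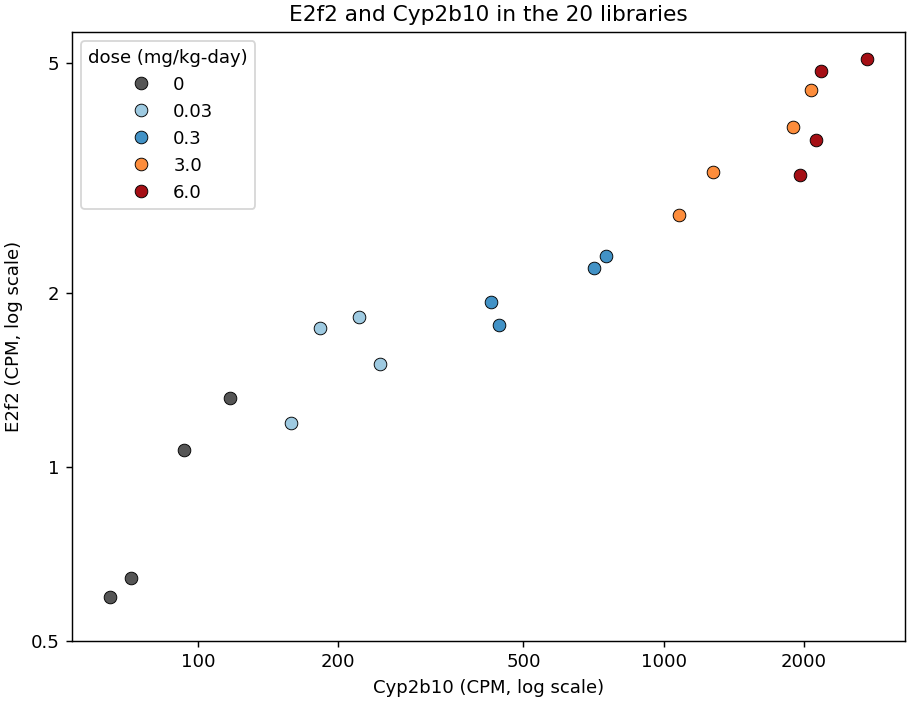
E2f2 (y axis, CPM, log scale) against Cyp2b10 (x axis, CPM, log scale) in the 20 libraries, coloured by dose in mg/kg-day. The controls lie lowest for Cyp2b10 and the libraries of the 2 top doses highest on both axes, with r = 0.967 on log2 CPM.

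Gadd45b was closest to the mitotic gene Knstrn (r = 0.982, and 0.55 for deviations), to Gstm3 (r = 0.982) and to Cdca3 (r = 0.979). Foxm1 was closest to the mitotic genes Anln, Bub1b and Ckap2 (r = 0.948 to 0.953), and E2f7 to Bub1b, Rrm2 and Rfc4 (r = 0.884 to 0.908). Myc was closest to Ppil1, Gm10639 and the helicase gene Mcm2 (r = 0.918 to 0.934), and E2f1 to Treh, the mitotic kinase gene Aurka and the sterol synthesis gene Cyp51 (r = 0.907 to 0.914). Gadd45a was closest to Pla2g12a (r = 0.949, and 0.837 for deviations), Fez2 and Slc22a5. Egfr was closest to the cytokine receptor gene Lifr (r = 0.954), the growth factor gene Igf1 (r = 0.943) and the vasopressin receptor gene Avpr1a (r = 0.939). Lifr and Igf1 fell by 1.05 and 1.74 on the log2 scale at 6.0 mg/kg-day (adjusted p = 1.16e-06 and 2.74e-07). Met was closest to Nfib, Slc12a2 and the glucocorticoid receptor gene Nr3c1 (r = 0.968 to 0.972, and 0.918 to 0.935 for deviations). E2f8 had the weakest likeness, with r = 0.769 for Cyp2c67, 0.762 for Slc25a30 and 0.745 for Acsm2.

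Coordinates of the genes in GRCm38 (GENCODE M21) place Myc at chr15:61985391-61990374, E2f1 at chr2:154559407-154569892 (minus strand), E2f2 at chr4:136172394-136196057 and Foxm1 at chr6:128362967-128376146. E2f7 is at chr10:110745439-110787384, Gadd45b at chr10:80930073-80932204, E2f8 at chr7:48866429-48881596 (minus strand) and Gadd45a at chr6:67035096-67037457 (minus strand). Egfr is at chr11:16752203-16918158 and Met at chr6:17463800-17573980. All 10 are annotated as protein-coding genes. Overlaps with other genes on exons were under 3% of the exon length for Foxm1 and E2f7, and Egfr has none on exons.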

How the data were processed

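Liver RNA was sequenced from 20 mice, each library run over 4 lanes, which the labels list as 80 samples. The authors deposited a table of expected counts per gene. That unit was read from the values, which are never below 0, have unequal totals per library and are whole in 58% of cells. The series title speaks of targeted sequencing and no list of targets was used here, so shares of genes are over the rows of this table. The submitters' processing notes name Partek and GRCm38.p5. The sources used here do not give the aligner, counter, annotation or strand setting. Expected counts were rounded, edgeR's filterByExpr (minimum count 10) removed low rows, and libraries were scaled by TMM.

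edgeR 4.0.16 (R 4.3.3) tested every gene by its quasi-likelihood test in 1 fit of 20 libraries with 15 residual degrees of freedom (biological coefficient of variation 0.219), with Benjamini-Hochberg adjustment over 15197 genes. SE is the change divided by the square root of F. The scripts were tested on simulated data. Alternatives were RLE factors, DESeq2 1.42.0, limma-voom (limma 3.58.1), no filter, unrounded counts, the compared groups alone, a slope on the dose, and leaving out each library. A term for the 5 libraries apart and their removal were added after the data were seen, as were the counts of list genes without library 22.

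The 10 genes and the companion and marker lists were chosen with earlier results of these data known. Named genes were all 10, besides them 4 genes of each companion list, those of smallest adjusted p at 6.0 mg/kg-day, and the 3 genes most similar to each of the 10. Gm2788 and E230016M11Rik were named for their overlap, and Btc after its values were seen. Promoters came from RefSeq. Lane samples of 1 mouse were counted as 1 library.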

Additional observations from a re-analysis of the deposited data

Results flagged for a closer look

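In 2 of 50 groups of 4 libraries examined (10 genes in 5 groups), 1 library lay far from the other 3 by Dixon's criterion, which chance alone meets in about 1 of 20 groups. Foxm1 had 3.49 CPM in library 19 at 3.0 mg/kg-day, against 1.83 to 1.95 CPM in the other 3 libraries of that dose. That library was among the 5 that stood apart within their groups. Without the 5, the change of Foxm1 at 3.0 mg/kg-day was 2.09 on the log2 scale (adjusted p = 0.00116 in edgeR). Egfr had 161 CPM in library 13 at 0.3 mg/kg-day, against 90.6 to 102 CPM in the other 3 libraries of that dose. Without any 1 library its change at 0.3 mg/kg-day ranged from -1.31 to -0.93, with adjusted p from 0.0526 to 0.317.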

How the results depend on the processing

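The calls of the 10 genes at 6.0 mg/kg-day were the same under every alternative except the fit of the 2 groups alone, which called 7 of the 9: Met was lost (adjusted p = 0.0592) and E2f7 was left out by the filter. E2f7, counted among these 9, passed the filter of the main fit only through dosed libraries. The 4 at 3.0 mg/kg-day stayed called under each, and DESeq2 and the term for the 5 libraries that stood apart each called 6, adding Myc and Gadd45a. The fit without those 5 libraries called 5, adding Gadd45a. No paired analysis was possible because the library numbers are not shared between groups. Genes called at 0.03 mg/kg-day numbered 0, but 1 with RLE factors, 1 with limma-voom, 1 unrounded, 11 with DESeq2, 13 with the term and 2 without the 5. At 0.3 mg/kg-day they numbered 44, but 185 with DESeq2, 306 with the term and 158 without the 5. Of the 10 genes DESeq2 called E2f2 and Egfr there, that is 2, and the term 3, with E2f8. The fit without the 5 called 0 of the 10 at that dose. At 3.0 mg/kg-day 701 genes were called, and 1393 with the term. At 6.0 mg/kg-day 3405 were called, and 1726 from the 2 groups alone, 5639 with the term and 5228 without the 5. For 6.0 against 3.0 mg/kg-day 318 were called, and 649 with DESeq2, 0 from the 2 groups alone, 1400 with the term and 1476 without the 5. Of the 10 genes the counts there were 2, and 4, 0, 4 and 4. Leaving out 1 library gave 0 to 1, 12 to 51, 451 to 681, 2346 to 4653 and 110 to 969 genes for these comparisons, 2825 to 4376 for the trend, and 0 to 1 (0.3), 4 to 5 (3.0) and 1 to 3 (6.0 against 3.0) of the 10 genes. The counts at 0.3 mg/kg-day moved most without libraries 1, 2, 3, 14, 15 or 16, and those of 6.0 against 3.0 mg/kg-day without 17, 18, 22 or 23. Signs turned only for log2 fold changes that had not passed. At 0.03 mg/kg-day Myc and Gadd45b were 0.012 and -0.073 with limma-voom, and without 1 library the ranges were -0.34 to 0.28 (Myc), -0.20 to 0.30 (Gadd45b), -0.11 to 0.38 (Foxm1), -0.42 to 0.038 (Egfr) and -0.11 to 0.011 (Met). E2f1 at 0.3 mg/kg-day ranged from -0.21 to 0.22, and E2f8 in 6.0 against 3.0 mg/kg-day from -0.29 to 0.00053. Without the 5 libraries Egfr at 0.03 mg/kg-day was 0.11 and E2f8 in 6.0 against 3.0 mg/kg-day was 0.051, and the slope of E2f8 on the dose in mg/kg-day was 0.0097. The causes were not tested. Depth limits E2f7, with at most 44 counts per library.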
